A study of Mus musculus with 6 samples.

Results

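The cadherins and protocadherins of the dorsal root ganglion (DRG) are described here in mice that lost Meis1 from their nociceptors and in control mice. The members are all genes whose symbol is Cdh followed by a number or begins with Pcdh and that have a probe set listed for them alone on the array. They number 56 of the 18193 genes that can be named from such a probe set, and 101 of the 45037 tested probe sets. A probe set is a group of short oligonucleotides that together report 1 transcript as a fluorescence intensity, and each gene was represented by its brightest probe set, the one with the highest mean log2 intensity over the 6 arrays. The members comprise 5 type I cadherins, 11 type II cadherins, 5 other cadherins, 9 delta protocadherins, 3 other nonclustered protocadherins, 22 genes of the beta protocadherin cluster and 1 gene of the gamma cluster.

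Meis1cko mice carried a floxed allele of the homeobox gene Meis1 and a transgene in which a fragment of the Nav1.8 promoter drives Cre recombinase in most nociceptors, the sensory neurons of pain and itch. The labels call the other group only control, and Meis1 F/F littermates are named as controls only for the behavioral tests of the study, so that the exact genotype of the control mice on the arrays is not given. At P60, ganglia of the cervical, thoracic and lumbar levels were taken from 3 mutants and 3 controls, with 1 array per mouse, and the sex of each mouse is not given in the sources used here. Neurons without Cre, satellite glia, Schwann cells, vessels and connective tissue all contributed RNA to each array, and in such bulk samples fewer cells of a type and less RNA per cell cannot be told apart.

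Cadherins are calcium dependent adhesion proteins of the cell surface, which bind to cadherins of the neighbouring cell. Type I and type II cadherins hold onto the actin cytoskeleton through catenins. Type I cadherins are best known from strong junctions of epithelia, synapses and muscle, and type II cadherins from the sorting of neurons and glia into groups. Protocadherins lack the catenin binding tail and signal through other partners. The delta protocadherins guide axons and shape synapses, whereas the genes of the alpha, beta and gamma clusters lie side by side and are switched on in different combinations in single neurons, which gives a neuron a surface identity.

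The targeted gene checked the labels of the arrays. Meis1 intensities were 65.999, 72.1 and 64.2 in the Meis1cko mice and 109.7, 144 and 90.2 in the control mice on the brightest of 3 probe sets, and the genotypes did not overlap (log2 fold change -0.74, SE 0.18, adjusted p = 1 from limma, and 0.160 with the replicate block). The other 2 probe sets of Meis1 were dim, with log2 fold changes of 0.13 and -0.16. The first of these separated the genotypes the other way by a narrow gap. It had 34.2, 33.8 and 36.8 in Meis1cko and 33.7, 29.9 and 32.3 in control mice. Where any of the Meis1 probe sets lies relative to the deleted part of the gene was not analysed here. Markers of neurons such as Tubb3 (mean intensity 7959.7 ± 1193 in control ganglia, SD, n = 3) and of Schwann cells such as Mbp (10951 ± 1030.0) were bright. The oligodendrocyte markers Mog and Olig2 were below 20.8, the lowest 25th percentile of an array, on all 6 arrays, whereas Aqp4, a channel of astrocytes, had 249 ± 43.6 in control ganglia. Gfap, another astrocyte marker, had 36.5 ± 2.26 there and lay below the median of all probe sets, 64.8, on all 6 arrays. Scn10a, the gene of Nav1.8, had 752, 696 and 804 in control and 1213, 949.7 and 993 in Meis1cko mice, which did not overlap (log2 fold change 0.48, SE 0.14, adjusted p = 1 from limma). The replicate 3 arrays of both genotypes were unlike the remaining 4. In the control probe sets of Actb, the log2 intensity at the 3′ end minus that at the 5′ end, a sign of RNA length, averaged 0.43 on these 2 arrays and 1.38 on the other 4, and results that rest on these arrays are given with and without them.

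Cadherins of several cell types were detected in the ganglia. The probe sets of Cdh1, Cdh2, Cdh11, Cdh19 and Pcdh9 lay far above the median of the arrays, and 10 of the 22 genes of the beta cluster reached it. Of the 56 genes, 32 lay at or above the median of all probe sets, an intensity of 64.8, and 6 had a mean below the lowest 25th percentile of the arrays, 20.8, so that their fold changes are not exact. These 6 were Cdh17, Cdh18, Pcdhb4, Pcdhb13, Pcdhb18 and Pcdhgc4. Intensities of different probe sets depend on their oligonucleotides, and levels of different genes are therefore placed only against these marks and not against each other.

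**Figure D1:**
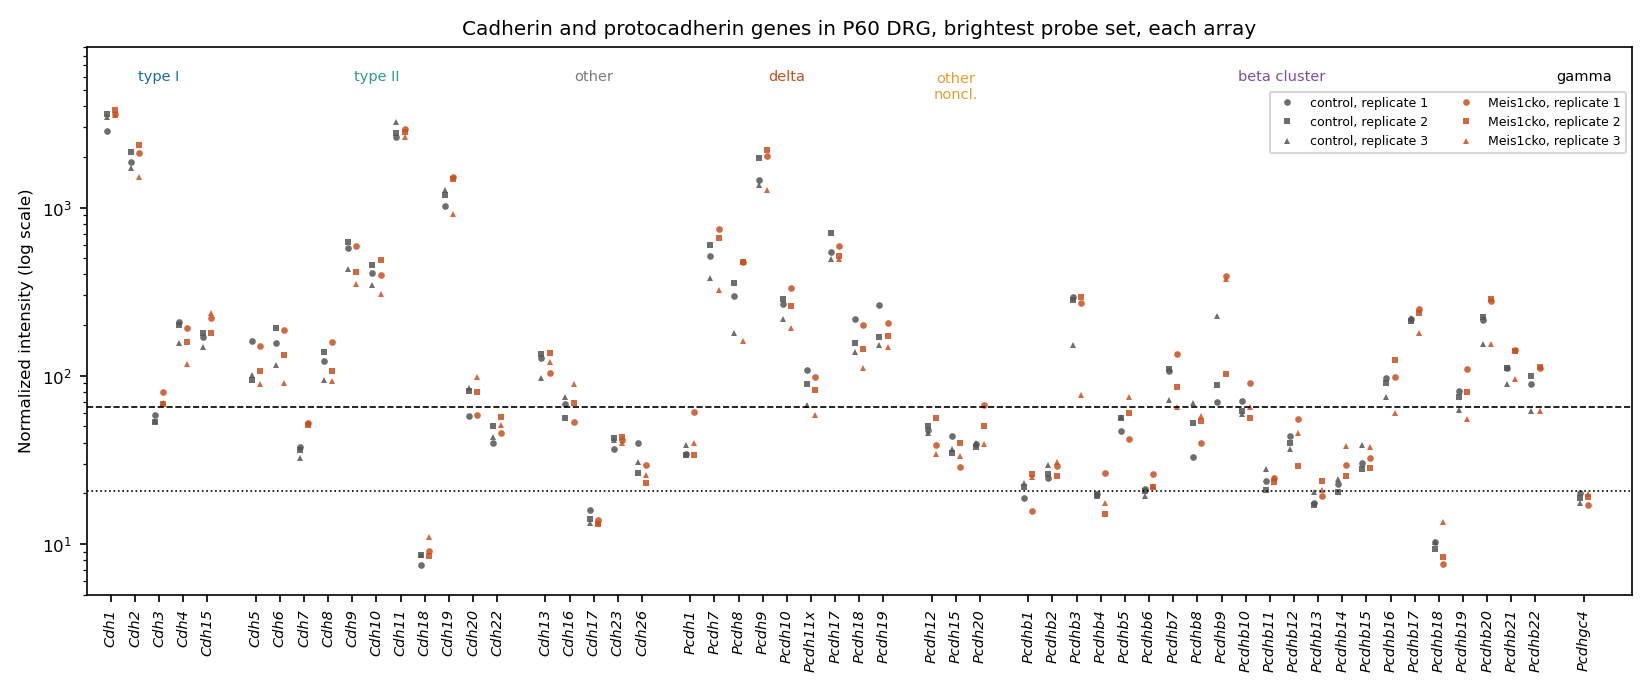
Normalized intensity (log scale) of the brightest probe set of each of the 56 genes on the 3 control (grey) and 3 Meis1cko (orange) arrays, with a symbol for each replicate number. The dashed line is the median of all probe sets (64.8) and the dotted line the lowest 25th percentile of an array (20.8); Cdh1 at 2855 to 3780.4 is far above both, and Cdh18 is below both on every array.

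No cadherin or protocadherin passed the adjusted threshold. On the brightest probe sets, the differences that separated the genotypes were small and all toward higher values in Meis1cko DRGs. Over all 101 member probe sets, 8 separated higher and 2 lower, against 3.21% and 3.43% of all probe sets. The 2 lower ones, of Pcdh17 and Pcdh10, were not the brightest of their genes. In limma, with p-values adjusted by Benjamini-Hochberg across the 45037 tested, 0 of the 56 genes passed an adjusted p under 0.05, the smallest being 0.965 for Cdh7, against 0.0055% of all genes. At an unadjusted p under 0.05, 4 members were higher, namely Cdh3, Cdh7, Cdh15 and Pcdhb14, against 1.19% of all genes, and 0 were lower, against 1.37% of all genes. The methods' t-test gave 2 higher members at the same unadjusted threshold, against 1.51% of all genes, and 0 lower, against 1.8% of all genes. In 5 genes, these 4 and Pcdhb6, every Meis1cko array lay above every control array, against 3.12% of all genes, and in 0 genes every Meis1cko array lay below, against 3.82% of all genes. For 3 arrays against 3, full separation gives p = 0.1 in the exact permutation test (two-sided), and no smaller p can be reached.

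The replicate numbers were taken to pair the arrays, although the labels do not say what the numbers stand for. This rests on correlations within these data, 0.424, 0.535 and 0.766 for replicates 1, 2 and 3. Across replicates 1 and 2 they were 0.337 and 0.319. With the number as a block, 9 members had an unadjusted p under 0.05 in limma. Of these, 7 were higher, against 3.3% of all genes, and 2 were lower, against 3.81% of all genes. The additional higher genes were Pcdh20, Pcdhb9 and Pcdhb21, and the lower genes were Cdh4 and Cdh26. The smallest adjusted p with the block was 0.211, for Cdh7, so that 0 members passed the adjusted threshold with the block, against 0.0989% of all genes. Without both replicate 3 arrays, 8 members were higher at an unadjusted p under 0.05, against 2.14% of all genes, and 0 were lower, against 2.26% of all genes. They were Cdh3, Cdh7, Cdh19, Pcdh8, Pcdh20, Pcdhb9, Pcdhb20 and Pcdhb21. Cdh15 and Pcdhb14 were not among them, with unadjusted p-values of 0.25 and 0.0575 in limma.

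**Figure D2:**
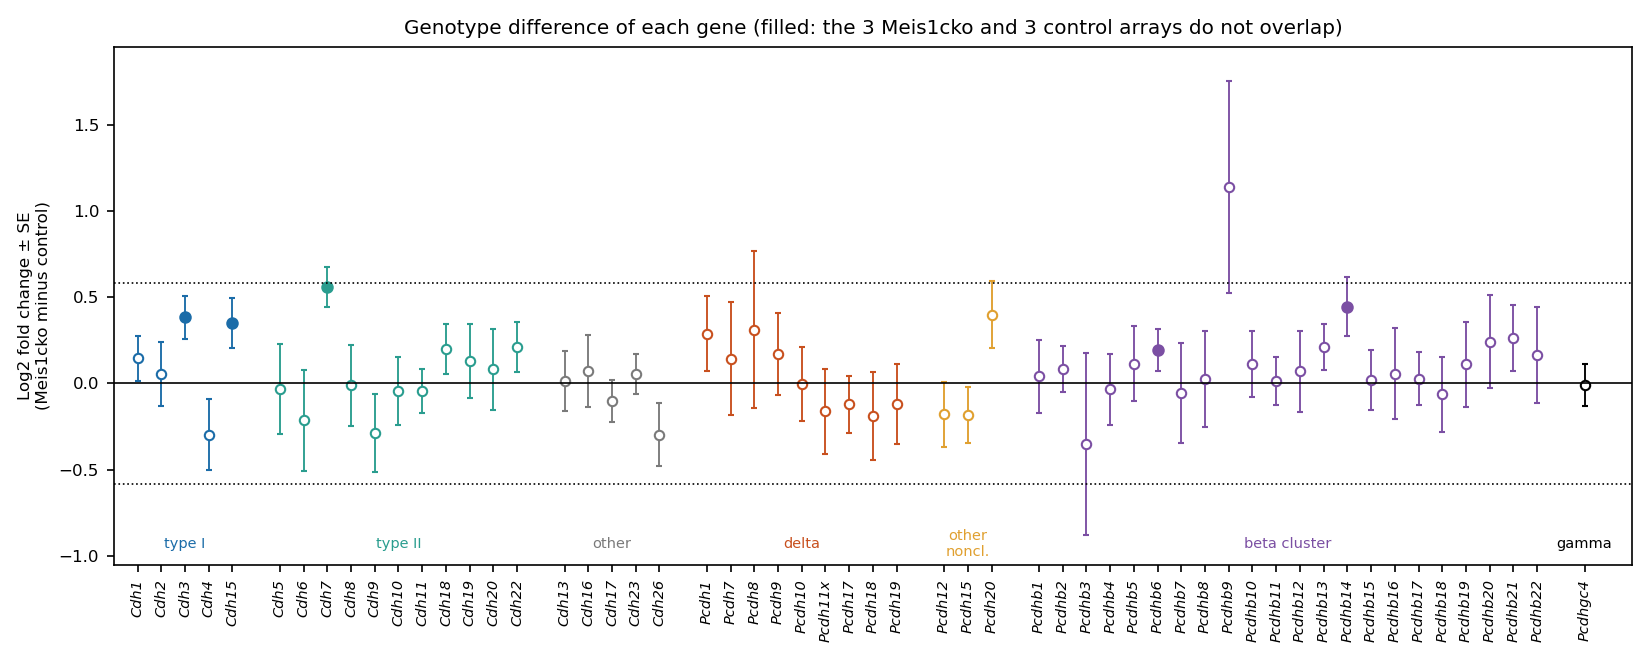
Log2 fold change (Meis1cko minus control, with standard errors from limma, 3 arrays per genotype) of the brightest probe set of each gene, coloured by subfamily. Filled circles mark the 5 genes whose arrays do not overlap between genotypes, all above 0, and dotted lines mark a fold change of 1.5, which only the estimate of Pcdhb9 exceeds.

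Cdh7, a type II cadherin known from neural crest and from sets of spinal and cranial neurons, had the most distinct difference of the family. Its intensities were 52.6, 50.9 and 52.6 in the Meis1cko mice and 37.6, 36.3 and 32.2 in the control mice. The genotypes were separated by a wide gap, and the arrays of each genotype lay close together. The means were 52.1 ± 1.01 and 35.4 ± 2.79 (SD, n = 3), or 0.56 as log2 fold change (SE 0.12, unadjusted p = 0.00167 and adjusted p = 0.965 from limma). The 95% interval reached from a 1.22-fold to a 1.78-fold higher signal. All of these intensities lay below the median of the arrays.

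A second probe set of Cdh7 gave 28.9, 36.1 and 32.2 in Meis1cko and 22.0, 21.2 and 24.0 in control mice. It separated the genotypes in the same direction, with a log2 fold change of 0.53 (SE 0.13, unadjusted p = 0.00453 and adjusted p = 1 from limma). The dimmest probe set, at 9.27 to 13.5, below the 25th percentile of every array, had a log2 fold change of -0.09. In all 3 numbered pairs the mutant exceeded its control on both brighter probe sets of Cdh7, by 0.49, 0.49 and 0.71 on the first. All 101 member probe sets carry gene IDs whose RefSeq symbol is the one used here.

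**Figure D3:**
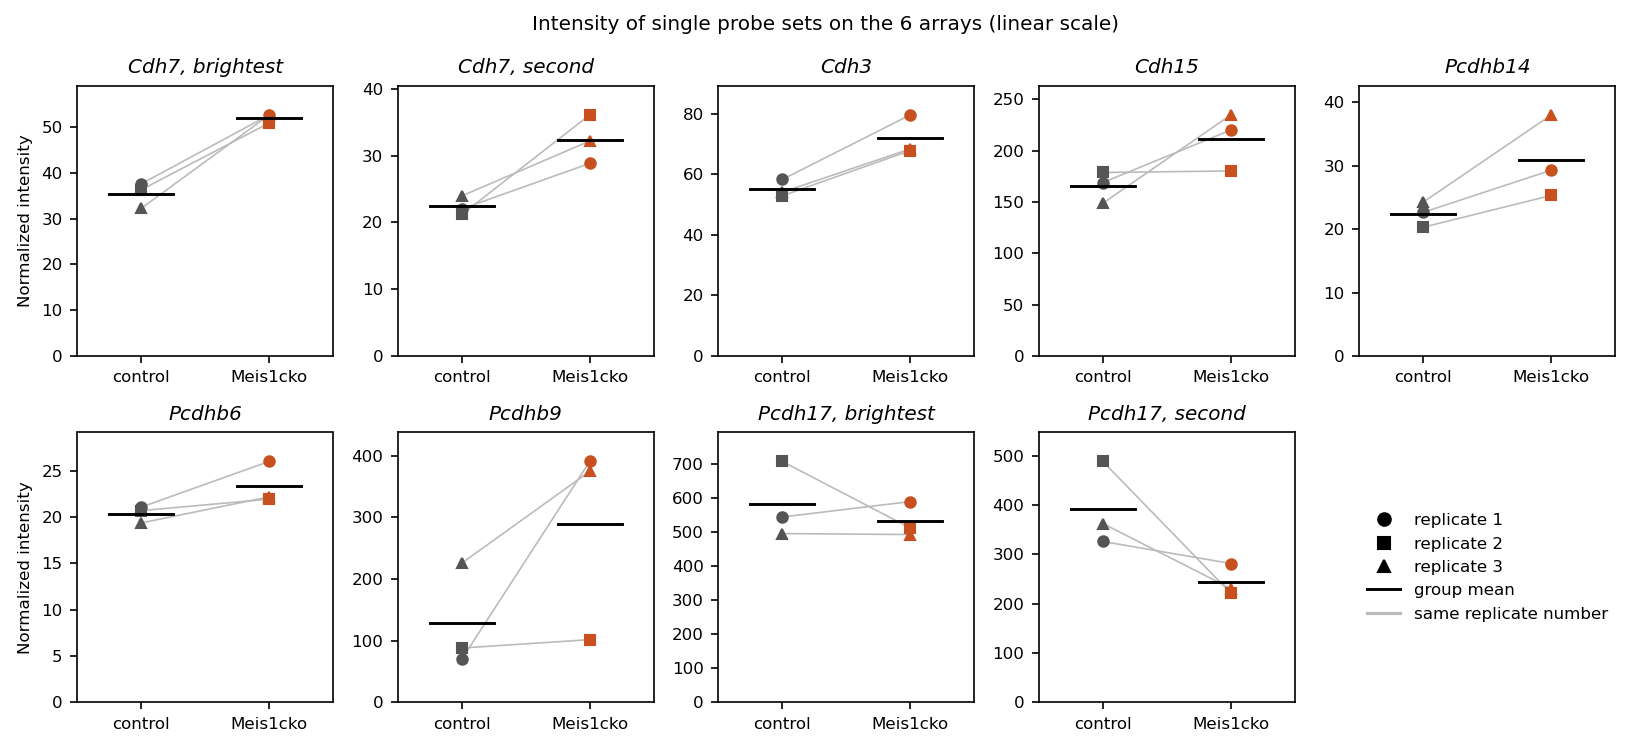
Normalized intensity (linear scale from 0) of 9 single probe sets in every mouse of both genotypes, with group means as bars and grey lines joining arrays of the same replicate number. Both Cdh7 probe sets, Cdh3, Cdh15, Pcdhb14 and Pcdhb6 lie higher in all Meis1cko mice, the second Pcdh17 probe set lies lower in all of them, and Pcdhb9 and the brightest Pcdh17 probe set overlap.

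Cdh3 and Cdh15 of the type I class lay higher in all Meis1cko mice, and the 2 brightest members of this class did not. The P-cadherin gene Cdh3, known from basal epithelia, melanocytes and placenta, had intensities of 79.7, 67.9 and 68.4 in Meis1cko and 58.3, 52.9 and 54.1 in control mice. All Meis1cko arrays lay above all control arrays, with a log2 fold change of 0.38 (SE 0.12, unadjusted p = 0.0156 and adjusted p = 1 from limma) and a 95% interval from 1.07-fold to 1.59-fold. The other probe set of Cdh3, at 15.4 to 22.4, overlapped with a log2 fold change of -0.03.

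Cells that use P-cadherin were followed with marker lists. The 5 epithelial keratin and Epcam markers had a median change of 0.13 on the log2 scale, and 0 of 5 had an unadjusted p under 0.05 in limma. Their summed intensity was 251 to 262 in control and 259 to 290.0 in Meis1cko DRGs, ranges that meet. Krt8 had the largest log2 fold change of them, 0.42. With the replicate block its unadjusted p was 0.00653 and its adjusted p 0.447 in limma. Among 4 melanocyte markers, 2 had a log2 fold change above 0 and 2 below, with a median of -0.016. Tyrp1 was lower (log2 fold change -1.28, unadjusted p = 0.000695 and adjusted p = 0.657 from limma) and passed with the replicate block (adjusted p = 0.00881 from limma). The summed intensity of the 4 was 353 to 471 in control and 193 to 274 in Meis1cko DRGs, and Tyrp1 made up most of it. Dct lay higher in every Meis1cko mouse, as Cdh3 did, at 43.1, 50.6 and 45.5 against 37.5, 39.7 and 39.9 (log2 fold change 0.25, adjusted p = 1 from limma). The part of these cells in the Cdh3 difference was not tested.

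Cdh15, the M-cadherin of muscle precursors that is also made by some neurons, had intensities of 220.2, 180.3 and 235 in Meis1cko and 169, 179 and 149 in control mice. The genotypes were separated by a narrow gap, since Meis1cko replicate 2 and control replicate 2 differed by 0.01 on the log2 scale. The log2 fold change was 0.35 (SE 0.15, unadjusted p = 0.0461 and adjusted p = 1 from limma), with a 95% interval from 1.01-fold to 1.62-fold. Summed skeletal muscle markers were 371, 689.9 and 874 in replicates 3, 2 and 1 of Meis1cko and 229, 799.6 and 2788 in the same replicates of the controls. Muscle signal was thus lowest in both replicate 3 arrays, where Cdh15 was highest in Meis1cko and lowest in control DRGs, and 0 of 5 muscle markers had an unadjusted p under 0.05 in limma. The part of muscle in the Cdh15 values was not tested.

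Promoter sequence was at hand for 20 of the 56 members, as windows upstream of RefSeq starts on GRCm38.p6, and Cdh3 was not among them. The windows were searched on both strands for TGACAG, reverse CTGTCA, the core bases known to be bound by MEIS homeodomain proteins. In the 250 bases before the start, 4 of 23 member windows held it, those of Cdh6, Cdh7, Cdh15 and Cdh20, a share of 17.4% against 15.9% of 32851 windows of all genes. The member share therefore lay near that of all genes. Cdh15 held 2 matches, which 1.64% of all windows reach. The Cdh15 window at chr8:122848124-122848373, plus strand, and a stretch of 1 of the 3 listed starts of Cdh7 at chr1:109983284-109983301, plus strand, which lies within the annotated gene, are shown because both genes lay higher in every Meis1cko mouse. Capitals mark the matches, which are a description of the letters only.
Cdh15: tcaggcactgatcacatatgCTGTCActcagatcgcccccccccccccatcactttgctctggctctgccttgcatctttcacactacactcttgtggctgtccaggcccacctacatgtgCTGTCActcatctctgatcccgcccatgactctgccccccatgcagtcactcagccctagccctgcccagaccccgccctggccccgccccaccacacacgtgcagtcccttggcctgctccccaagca
Cdh7: aaagcagtgtTGACAGac

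Cdh1 and Cdh2, the E-cadherin and N-cadherin of classical junctions, were bright in both genotypes. Cdh1, which in DRGs is known from satellite glia and unmyelinated nociceptors, had 3578, 3780.4 and 3563 in Meis1cko and 2855, 3599 and 3465 in control mice. The genotypes overlapped, with a log2 fold change of 0.15 (SE 0.13) and a 95% interval from 0.894-fold to 1.37-fold. Cdh2, the cadherin of synapses and Schwann cell contacts, had 2124, 2349 and 1524 in Meis1cko and 1862, 2128 and 1716 in control mice. Its genotypes also overlapped, with a log2 fold change of 0.05 (SE 0.19) and an interval from 0.767-fold to 1.405-fold, and its second probe set had 0.05 as well. The remaining type I gene, Cdh4 or R-cadherin, had 189 ± 27.4 in control and 155 ± 37.0 in Meis1cko DRGs and was lower in the mutant of all 3 pairs, by 0.12 to 0.42 on the log2 scale (adjusted p = 0.659 with the block in limma). Its second probe set had a log2 fold change of -0.06. Cdh4 was named after its values had been seen.

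The type II cadherins other than Cdh7 overlapped between the genotypes. Their class had 5 of 11 genes with a log2 fold change above 0, a median of -0.01 and a range from -0.29 to 0.56. Cdh11, the cadherin of mesenchyme and fibroblasts that Schwann cells also use, had 2910.5, 2803 and 2639.7 in Meis1cko and 2625, 2778 and 3231 in control mice. Both the highest and the lowest array were controls, and the log2 fold change was -0.04 (SE 0.13). The 6 fibroblast markers were lower as a group beside it, with a median log2 fold change of -0.56, 4 of 6 at an unadjusted p under 0.05 in limma and 0 after adjustment. With the replicate block 5 of 6 had an unadjusted p under 0.05, and Lum, a proteoglycan of connective tissue, passed after adjustment (log2 fold change -1.34, adjusted p = 0.00717 from limma). Their summed intensity was 10569 to 17256 in control and 7590.2 to 9616 in Meis1cko DRGs, ranges that do not meet. On the second probe set of Cdh11 the difference was 0.24 on the log2 scale (SE 0.17). The part of fibroblasts in the Cdh11 values was not tested.

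Cdh19, a marker of Schwann cell precursors and peripheral glia, had 1511, 1469 and 915 in Meis1cko and 1027, 1182 and 1274 in control mice. The Meis1cko mice held both the highest values and the lowest one, with 0.13 as the log2 fold change (SE 0.21, adjusted p = 1 from limma). This value depended on single mice: it was 0.37 without Meis1cko replicate 3, 0.0035 without Meis1cko replicate 1, 0.024 without Meis1cko replicate 2 and 0.045 without control replicate 1. Without both replicate 3 arrays it was 0.43 (SE 0.15, adjusted p = 0.998 from limma). The 4 measured Schwann cell markers changed by a median of -0.04 on the log2 scale and the 5 measured satellite glia markers by -0.03, with 1 of these, the potassium channel gene Kcnj10, lower at -0.36 (unadjusted p = 0.0228 and adjusted p = 1 from limma).

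Cdh5, the VE-cadherin of endothelial junctions, had 150.2, 107 and 89.2 in Meis1cko and 160.3, 94.8 and 101 in control mice. In both genotypes replicate 1 was highest, and the difference was -0.03 on the log2 scale (SE 0.26), its interval reaching from 0.639-fold to 1.496-fold. None of the 7 endothelial markers had an unadjusted p under 0.05 in limma, and their median log2 fold change was -0.04. Among them Egfl7 lay lower in all Meis1cko mice, with a log2 fold change of -0.17. Tek had 0.31 (unadjusted p = 0.037 with the replicate block in limma) and overlapped. Of the 5 mural cell markers, Acta2 and Tagln lay higher in all Meis1cko mice, at 0.76 and 0.47 (adjusted p = 1 for both from limma). Rgs5, Pdgfrb and Myh11 overlapped between the genotypes, at 0.29, 0.06 and 0.05. The remaining type II genes Cdh6, Cdh8, Cdh9, Cdh10, Cdh18, Cdh20 and Cdh22, known from groups of neurons in brain and spinal cord, had log2 fold changes between -0.29 (Cdh9) and 0.21 (Cdh22).

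The other cadherins are a mixed group without a shared partner. Cdh13, the T-cadherin that is anchored in the membrane by a lipid, had 104, 137 and 122 in Meis1cko and 127, 135 and 96.9 in control mice, and the genotypes overlapped with a log2 fold change of 0.02 (SE 0.17). Cdh16, known from kidney, had 53.4, 69.2 and 88.9 in Meis1cko and 67.6, 56.02 and 74.4 in control mice, with a log2 fold change of 0.07 (SE 0.21). Neither gene ordered the mice by genotype. Cdh17, known from gut, was below the 25th percentile, Cdh23, a component of the tip links of hair cells, had a log2 fold change of 0.06, and Cdh26 had -0.30 (SE 0.18). In all 3 pairs Cdh26 was lower in the mutant (adjusted p = 0.638 with the block in limma), and was named after its values had been seen.

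The delta protocadherins were mostly above the median intensity, and in most of them the replicate 3 arrays of both genotypes lay apart from the other 4. Of the 9 genes, 8 lay at or above the median intensity, 4 had a log2 fold change above 0, and the median was -0.0035. Pcdh9, which is broadly made by neurons, had 2012, 2186 and 1277 in Meis1cko and 1467, 1966 and 1368 in control mice. Replicate 3 was the lowest array in both genotypes, and the log2 fold change between genotypes was 0.17 (SE 0.24) with an interval from 0.764-fold to 1.66-fold.

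In 8 of the 9 delta protocadherins, all except Pcdh1, both replicate 3 arrays lay below the other 4, against 30.2% of all genes and 20 of the 56 members. These 20 were all among the 32 members at or above the median intensity, 62.5% of them, and Pcdh1 lay below it. Within the family the pattern was thus seen only at or above the median, and not in the delta class alone. Of the members at or above the median, it was shown by all 8 delta genes. It was also shown by 2 of 4 type I cadherins, 3 of 8 type II cadherins, 7 of 10 beta cluster genes and 0 of 2 other cadherins. The share among equally bright genes outside the family was not computed, and the part of brightness was not tested. In 7 members both lay above the other 4, against 11.4% of all genes. The median log2 difference of the replicate 3 arrays from the others was -0.51 over these 9 genes and -0.09 over all genes. Among the delta protocadherins it was largest for Pcdh8, a regulator of synaptic cadherins, with 476, 476 and 161 in Meis1cko and 299, 356 and 180.0 in control mice. Both replicate 3 arrays were lowest, and the difference of -1.21 between replicate 3 and the rest exceeded the log2 fold change of 0.31 (SE 0.45) between genotypes. Pcdh7, known from a subset of sensory neurons, had 745, 659 and 323 in Meis1cko and 512, 601 and 382 in control mice, with differences of -0.83 for replicate 3 and 0.14 (SE 0.33) for genotype. The Actb difference named above moved with these genes, and the part of RNA length in them was not tested. Pcdh7 and Pcdh8 were chosen once their values were known.

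**Figure D4:**
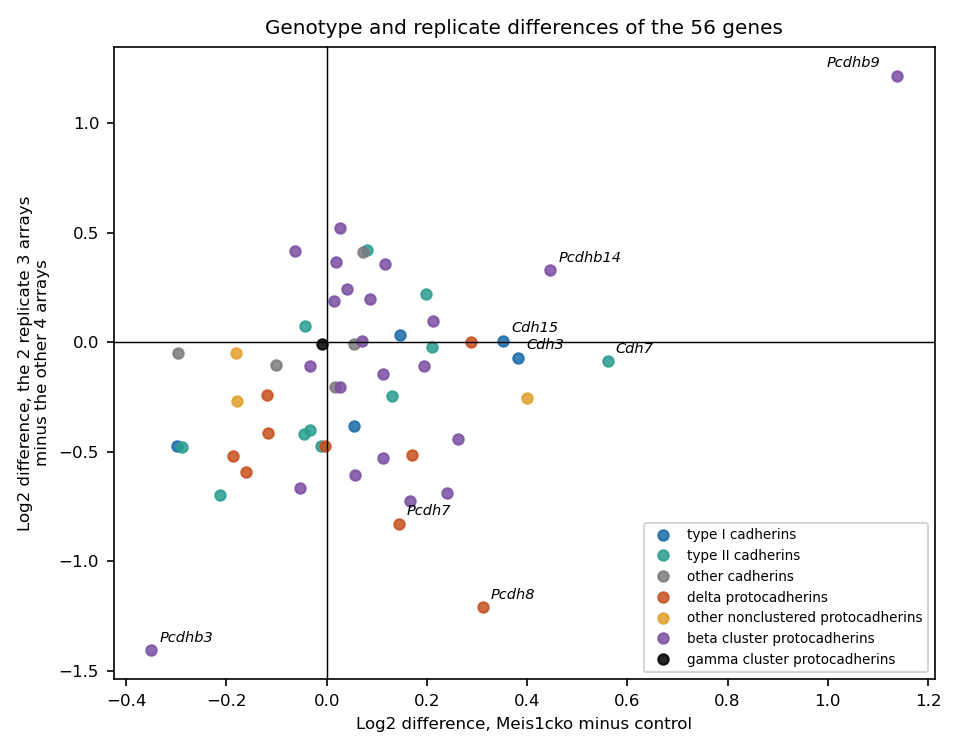
Log2 difference between genotypes (Meis1cko minus control, x axis) and between the 2 replicate 3 arrays and the other 4 arrays (y axis) for the brightest probe set of each of the 56 genes, coloured by subfamily. Cdh7, Cdh3 and Cdh15 lie to the right near 0 on the y axis, and the delta protocadherins lie below 0 on the y axis with Pcdh8 lowest among them at -1.21.

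Without the replicate 3 arrays, Pcdh8 was higher in both remaining Meis1cko mice, with a log2 fold change of 0.55 (SE 0.15, unadjusted p = 0.00798 and adjusted p = 0.892 from limma), and Pcdh7 had 0.34 (SE 0.16). A pair of arrays per genotype leaves little to estimate the spread from, and 14.8% of all genes then lay higher in both Meis1cko mice and 18.7% lower. Of the members, 18 lay higher and 3 lower.

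Pcdh17, a delta protocadherin of axons that extend together and of synapses, was the only gene with an interval below 0 on any probe set. On its brightest probe set it had 589.7, 512 and 493 in Meis1cko and 545, 708 and 496 in control mice. The genotypes overlapped there, with a log2 fold change of -0.12 (SE 0.16). Its second probe set had 282, 221 and 231 in Meis1cko and 326, 488 and 363 in control mice, and all Meis1cko arrays lay below all control arrays. The log2 fold change of -0.67 (SE 0.18, unadjusted p = 0.00767 and adjusted p = 1 from limma) had an interval from 0.467-fold to 0.848-fold. Both probe sets lay above the median intensity, and both estimates were below 0. The interval of the brightest, from 0.704-fold to 1.20-fold, included no change, so that its sign is not settled. Among all 45037 probe sets, 0.357% were lower and 0.318% higher at a fold change over 1.5 and an unadjusted p under 0.05, the thresholds of the methods, and this was the 1 member probe set to pass them. By their brightest probe sets 0 members passed them, against 0.324% higher and 0.456% lower of all genes.

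Other members with several probe sets also disagreed. Of the 27 genes with more than 1 probe set, 11 had all of them on the same side of 0 and 16 had them on both sides. Pcdh10, with 6 probe sets, had a log2 fold change of -0.0035 on the brightest. Another of its probe sets lay lower in all Meis1cko mice, at 109, 105 and 114 against 125, 132 and 124 (log2 fold change -0.22, SE 0.11, unadjusted p = 0.0859 from limma). Dim probe sets of Cdh8 and Pcdh12 lay higher in all Meis1cko mice, by 0.10 and 0.13, and for Cdh8 the nearest arrays of the genotypes were both at 20.0. Over all 101 member probe sets, 8 lay higher and 2 lower in every Meis1cko mouse, against 3.21% and 3.43% of all probe sets. These probe sets of Pcdh10, Cdh8 and Pcdh12 were picked once their values were known.

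The other nonclustered protocadherins were dim, and none of the 3 reached the median intensity. Pcdh20, whose product is a neuronal protocadherin, had 67.2, 50.1 and 39.5 in Meis1cko and 39.0, 37.5 and 39.6 in control mice. Meis1cko replicates 1 and 2 lay above all controls and replicate 3 lay among them, with a log2 fold change of 0.40 (SE 0.20, unadjusted p = 0.0784 from limma) and 0.60 (SE 0.18, unadjusted p = 0.0104) without the replicate 3 arrays. Pcdh12, a protocadherin of endothelium, had 38.7, 55.9 and 34.4 in Meis1cko and 47.4, 50.03 and 45.5 in control mice. The Meis1cko mice surrounded the controls, with a log2 fold change of -0.18 (SE 0.19). Pcdh15, the partner of Cdh23 in tip links, had a log2 fold change of -0.18 (SE 0.16).

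The beta protocadherin cluster leaned slightly toward higher values in Meis1cko DRGs. Of its 22 genes, 18 had a log2 fold change above 0, against 45.8% of all genes, and the median was 0.08 against -0.01 for all genes. This median was smaller than the median standard error of a single gene of the cluster, 0.21. Neighbouring genes of the cluster have similar sequences, so that probe sets can share targets and are not independent of each other. Of the 22, 1 gene, Pcdhb14, was higher at an unadjusted p under 0.05, against 1.19% of all genes, and 2 separated the genotypes toward higher values, against 3.12% of all genes.

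Pcdhb14 had 29.3, 25.3 and 38.0 in Meis1cko and 22.6, 20.3 and 24.3 in control mice. All Meis1cko arrays lay above all controls, with a log2 fold change of 0.45 (SE 0.17, unadjusted p = 0.0355 and adjusted p = 1 from limma), at intensities near the 25th percentile. The other probe set of Pcdhb14 lay lower, at 7.82 to 11.4, with a log2 fold change of -0.21. Pcdhb6 had 26.0, 21.9 and 22.2 in Meis1cko and 21.1, 20.7 and 19.4 in control mice. It separated the genotypes by a narrow gap, with a log2 fold change of 0.19 (SE 0.12, unadjusted p = 0.155 from limma), and was named after its values had been seen.

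Pcdhb9 and Pcdhb3 varied most between mice of the same genotype. Pcdhb9 had 391, 102 and 375 in Meis1cko and 70.1, 88.2 and 226 in control mice. Its log2 fold change of 1.14 was the largest of the family, but the genotypes overlapped and the standard error was 0.62 (unadjusted p = 0.105 from limma). The pairs gave 2.48, 0.21 and 0.73, all above 0 (adjusted p = 0.592 with the block in limma), and the value was 1.34 (SE 0.53) without the replicate 3 arrays and 0.80 to 1.78 with 1 array left out. Pcdhb3 had 269.9, 296 and 76.8 in Meis1cko and 296, 283 and 152 in control mice, where both replicate 3 arrays were lowest. Its log2 fold change of -0.35 (SE 0.53) was smaller than the difference of -1.41 between replicate 3 and the rest. Pcdhb3 and Pcdhb9 were also chosen with their values in view.

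**Figure D5:**
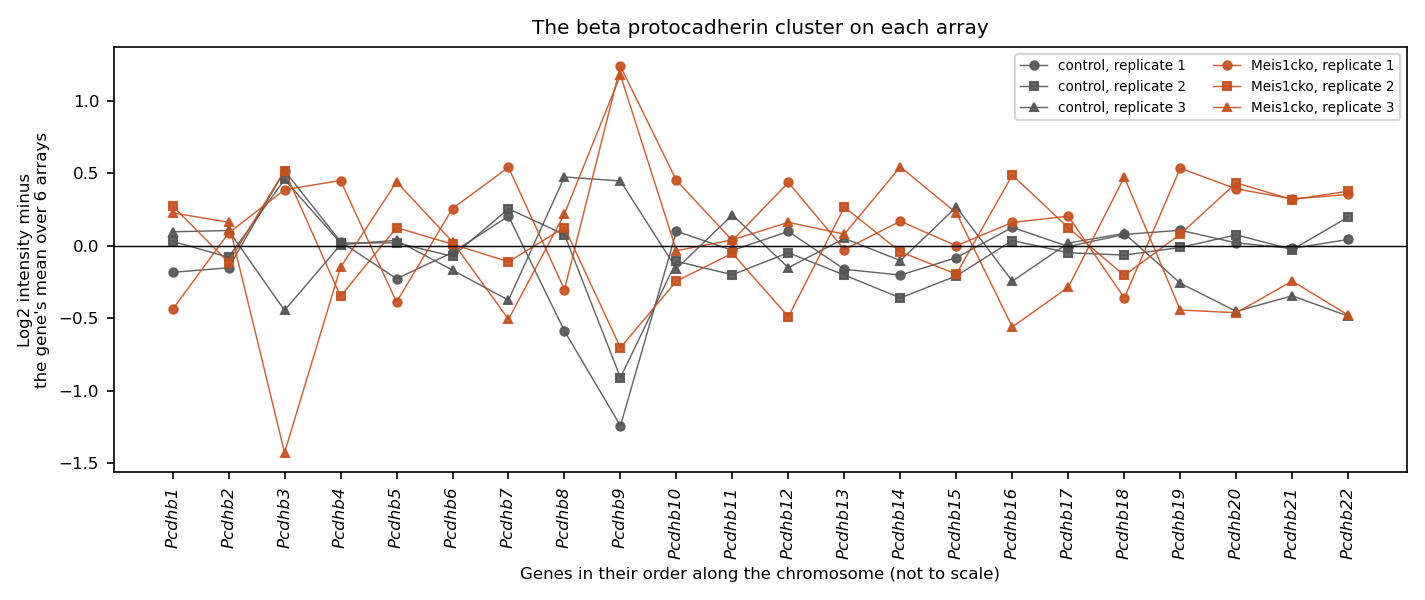
Log2 intensity minus the mean over 6 arrays for each of the 22 beta protocadherin genes in their order along the chromosome (not to scale), with 1 line for each control (grey) and Meis1cko (orange) array. Pcdhb9 spans from -1.24 to 1.24 with Meis1cko replicates 1 and 3 highest, Pcdhb3 falls to -1.43 in Meis1cko replicate 3, and from Pcdhb19 to Pcdhb22 both replicate 3 arrays lie below the rest.

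Both replicate 3 arrays were lowest in 31.8% of the beta genes, a share near that of all genes. Pcdhb17 had 251, 237 and 179 in Meis1cko and 217, 211 and 221 in control mice, and overlapped with a log2 fold change of 0.03 (SE 0.15). It was not one of them, since control replicate 3 was its highest control array. Pcdhb20 had 277, 285 and 153 in Meis1cko and 214, 223 and 154 in control mice. In 7 of the 22 genes both replicate 3 arrays lay below the other 4, against 30.2% of all genes, namely Pcdhb3, Pcdhb7, Pcdhb16 and the neighbours Pcdhb19, Pcdhb20, Pcdhb21 and Pcdhb22, and in 5 genes, Pcdhb18 among them, both lay above. The last 4 neighbours were picked for this pattern, and in them the Meis1cko arrays of pairs 1 and 2 lay above their controls. The log2 fold changes of these 4 were 0.11, 0.24, 0.26 and 0.17 over all arrays. Without the replicate 3 arrays Pcdhb20 had 0.37 (SE 0.14, unadjusted p = 0.032 from limma) and Pcdhb21 had 0.34 (SE 0.14, unadjusted p = 0.0397). At the other end of the cluster, Pcdhb1, Pcdhb2 and Pcdhb4 were dim and had log2 fold changes from -0.03 to 0.09. Pcdhgc4, the 1 gene of the gamma cluster with a probe set of its own, had 17.1, 19.1 and 19.7 in Meis1cko and 20.1, 18.7 and 17.5 in control mice, below the 25th percentile and overlapping (log2 fold change -0.01, SE 0.12).

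No partner gene of the cadherins passed the test between the genotypes. In each of 5 lists, 0 genes had an adjusted p under 0.05 and 0 had an unadjusted p under 0.05 in limma, and the list medians lay between -0.06 and 0.02 on the log2 scale. All 13 catenins and other cytoplasmic partners were measured, with a median of -0.01. The p120 catenin gene Ctnnd1, which stabilizes cadherins at the membrane, averaged 236 ± 20.9 in controls and 272 ± 31.1 in mutants (SD, n = 3 each), and the genotypes overlapped (log2 fold change 0.20, SE 0.14). Ctnnal1 and Ctnnbip1 had -0.10 and -0.11, and the vinculin gene Vcl had 0.07.

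Of the other genes of the cadherin superfamily, 21 of 23 were measured, with a median of -0.01. Clstn2, a calsyntenin of the postsynaptic membrane, lay higher in all Meis1cko mice, with 886 ± 78.9 against 744 ± 33.0 in control DRGs (log2 fold change 0.25, SE 0.12, unadjusted p = 0.0744 from limma). Clstn3 also lay higher in all of them (log2 fold change 0.11, SE 0.11) and was named after its values had been seen. Thus 2 of the 21 separated higher, against 3.12% of all genes, and 0 lower, against 3.82%. Celsr1, a planar polarity cadherin, had -0.37 (SE 0.20), Cdhr1 had -0.52 (SE 0.32) and the desmosomal gene Dsc3 had 0.16 (SE 0.13). Among the 9 of 10 measured proteases that process cadherins, the median was -0.06. Adam17, which sheds surface proteins, averaged 213 ± 9.20 in controls and 168 ± 34.2 in mutants (log2 fold change -0.36, SE 0.16, unadjusted p = 0.0567 from limma). With the replicate block Adam17 and Pcsk5 among the proteases, and Celsr1 and Fat3 in the superfamily list, had an unadjusted p under 0.05 in limma, and 0 passed after adjustment. The proprotein convertase gene Pcsk5 had -0.38 (SE 0.22), and the gamma secretase genes Aph1a and Psenen had -0.16 and -0.09.

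The regulators of the clustered protocadherin promoters, which include Ctcf and the cohesin subunits that loop enhancers to these promoters, were all measured, with a median of 0.02 over 13 genes. The cohesin release factor gene Wapl had 0.15, the loader gene Nipbl 0.10, Smchd1, a silencer of the clusters, 0.14 and Pds5b 0.11, each within 1 standard error of 0. Among 11 of 13 measured effectors of protocadherins, the kinases and WAVE complex genes that pass their signal to actin, the median was -0.02. Wasf2 had 0.09, Wasf1 0.08, the kinase gene Fyn -0.09 and the formin gene Fmnl2 0.08.

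Over the whole family, 35 of 56 genes (62.5%) had a log2 fold change above 0, against 45.8% of all genes, with a median of 0.05 against -0.01. The median followed single mice, since the median deviation of the members on an array was 0.19 in Meis1cko replicate 1, 0.04 in Meis1cko replicate 2 and -0.12 in Meis1cko replicate 3, with -0.00096, 0.0092 and -0.15 in the controls. The spread of these values within a genotype, 0.13 (SD), exceeded the median difference. The half-width of the 95% interval of a member reached from 0.27 to 1.44 on the log2 scale. With 3 mice per genotype, differences within these widths could not be told from 0 even without adjustment. Larger differences could still miss the adjusted threshold, as that of Cdh7 did at 0.56 (adjusted p = 0.965 from limma).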

How the data were processed

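Total RNA of whole DRGs from 3 Meis1cko and 3 control mice was hybridized to 1-colour Affymetrix mouse arrays. The labels name Trizol for extraction and the methods an RNeasy kit. The authors scanned and normalized the arrays and deposited the intensity of each probe set on a linear scale, and how probes were summarised and normalized is not given in the sources used here. Intensities were taken to log2 with a floor of 1. The 64 control probe sets were left out, and 45037 were tested for Meis1cko minus control in limma 3.58.1 (R 4.3.3; lmFit, then eBayes), checked on simulated data, with Benjamini-Hochberg adjustment over all of them. The number of arrays limits the precision. Nothing says whether arrays shared a litter or day. Without the replicate block, p-values measure the spread between arrays of a genotype, which includes what the replicate 3 arrays of both genotypes share.

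The platform annotation gave 1 symbol for 34945 probe sets, several for 932 and none for 9160, and a gene's values come from its single-gene probe set of highest mean log2 intensity. Exact permutation tests used SciPy 1.17.1. The members and gene lists were chosen with earlier results of these data known. Named genes are members with an unadjusted p under 0.05 on any of their probe sets, members separated with a fold change over 1.5, the 2 brightest others of each subfamily, cadherins known for 1 kind of cell, up to 4 genes of each partner list with the smallest p, and Meis1. The deviations from the genotype means correlated at 0.424, 0.535 and 0.766 between arrays of the same replicate number, which were taken as pairs. Between replicates 1 and 2 the correlations were 0.337 and 0.319, and with replicate 3 they were -0.60 to -0.52, which puts most of the pairing in replicate 3. Alternatives were eBayes with a trend, the methods' t-test, other scalings, offsets and filters, the replicate block, averaged probe sets and arrays left out.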

Additional observations from a re-analysis of the deposited data

How the results depend on the processing

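The number of members past the adjusted threshold stayed at 0 in all 18 alternatives, and so did that of the partner lists. The count of 4 members with an unadjusted p under 0.05 was 2 with the methods' t-test (3.31% of all genes), 0 with a filter at the median intensity, which leaves 32 members (2.4% of the genes left), 9 with the replicate block (7 higher, against 3.3% of all genes, and 2 lower, against 3.81%) and 8 without replicate 3 of both genotypes (4.41%). With 1 array left out it was 1 to 8, namely 8 without Meis1cko replicate 3 (4.16% of all genes), 2 without control replicate 1 (1.53%) and 1 without control replicate 2 (1.93%). The count of 5 members with separated genotypes was 1 with the filter at the median (6.44% of the genes left), 21 without replicate 3 of both genotypes (33.5% of all genes then separated) and 5 to 16 with 1 array left out, where up to 21.3% of all genes separated. It was 13, 11 and 16 without Meis1cko replicates 1, 2 and 3, and 8 and 10 without control replicates 2 and 3. The median log2 fold change of the members lay between 0.01 and 0.13 in all alternatives.

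Cdh3, Cdh7, Cdh15, Pcdhb14, Pcdhb6, Pcdhb9 and the second probe sets of Cdh7 and Pcdh17 kept their sign in every alternative in which they were kept. The value of Cdh7 lay between 0.26 and 0.61, of Cdh3 between 0.18 and 0.42, of Cdh15 between 0.20 and 0.46, of Pcdhb14 between 0.12 and 0.58, of Pcdhb9 between 0.80 and 1.78, and of the second probe set of Pcdh17 between -0.79 and -0.50. Signs turned only in genes with small differences, and the cause was not tested. With 1 array left out, the log2 fold change was -0.23 to 0.029 for Pcdh17, -0.075 to 0.24 for Cdh2, -0.24 to 0.20 for Cdh5, -0.11 to 0.043 for Cdh11, -0.13 to 0.12 for Cdh13, -0.11 to 0.26 for Cdh16, -0.069 to 0.18 for Pcdhb17 and -0.057 to 0.050 for Pcdhgc4. Without replicate 3 of both genotypes it was 0.041 for Cdh5, 0.081 for Cdh11, -0.14 for Cdh13 and -0.018 for Cdh16. It was 0.098 for Cdh11 with probe sets averaged, and 0.0084 for Pcdhgc4 with centring on the 75th percentile. The block changed no adjusted call of a member.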

Other observations

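The alpha protocadherin cluster was measured only by probe sets that are listed for several genes, because its transcripts share their constant exons, and so none of its genes is a member. Of 6 such probe sets, 3 are listed for 14 genes and 3 for 9 genes. Their mean intensities over the 6 arrays were 4094, 1581, 752, 534, 62.3 and 38.2, so that 4 of them lay above the median of all probe sets. The brightest had 4153 ± 249.6 in Meis1cko and 4035 ± 255 in control DRGs (SD, n = 3 mice), and the genotypes overlapped (log2 fold change 0.04, SE 0.12). For the remaining 5 the log2 fold changes were -0.10, -0.03, -0.09, 0.17 and -0.04 in the order of their intensity. All of them overlapped between genotypes, and each had an adjusted p of 1 in limma.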
